A study of Mus musculus with 18 samples.

Results

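The transcriptional response to SR-3420, a synthetic ligand of ABHD5, was followed in mouse brown adipocytes in which ABHD5 was stably knocked down. The 6 RNA-seq libraries used for it are the 3 replicates treated with 20 µM SR-3420 and the 3 treated with DMSO, all for 3 h and all without doxycycline (Dox), of 18 libraries in 6 groups. They were chosen by their labels alone. The other libraries are the same cells treated with the β-adrenergic agonist isoproterenol (ISO, 10 nM) and the matching DMSO, ISO and SR-3420 groups with 1 µg/ml Dox, which switches on an shRNA-resistant, mCherry-tagged ABHD5 in the knockdown cells. The question put to these libraries is which genes still respond to the ligand when its target is depleted.

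All groups share a genetic background: an immortalized mouse brown preadipocyte line carrying the lentiviral shRNA against Abhd5 and the inducible rescue construct, differentiated to adipocytes with indomethacin in the first days. No animal was sampled, and the groups without Dox carry the uninduced rescue construct. The labels call the groups without Dox ABHD5 KD and those with Dox WT, but the latter are knockdown cells re-expressing a tagged protein, and Dox was given for 24 h in this experiment, within the 24 to 48 h of the labels. Dox was therefore present only in the rescue groups, so that an effect of Dox itself and an effect of ABHD5 cannot be told apart where both groups are compared.

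ABHD5, also called CGI-58, is the co-activator of adipose triglyceride lipase (ATGL), the enzyme that starts triglyceride breakdown at the lipid droplet. In unstimulated fat cells it is held at the droplet surface by perilipins, and it is released when protein kinase A phosphorylates them or when a synthetic ligand displaces it. The fatty acids set free serve as fuel, are re-esterified to triglyceride, and act as ligands of the peroxisome proliferator-activated receptors (PPARs), nuclear receptors that control many genes of lipid storage and oxidation.

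The table holds 17672 genes, of which 10178 passed the filter on low counts and were tested with edgeR's quasi-likelihood test. The DMSO libraries held 689910 to 1036135 counts and the SR-3420 libraries 1253660 to 1615389, so that depth did not overlap between the groups being compared. Depth and treatment therefore cannot be told apart by design, and the counts were also thinned to the smallest total. Adipocyte markers were present, with a summed level of 3810 to 4420 CPM (counts scaled to library size with the TMM factor) in DMSO and 5390 to 5760 in SR-3420. Of the 22 in the table, 4 were at 3 counts or fewer in every library: Dio2, which was at 0, Ucp1, Cox8b and Lep. Preadipocyte markers summed to 1290 to 1480 and 1190 to 1410 CPM, with Thy1 and Dpp4 at 0, and macrophage markers to 15 to 20.3 and 16.3 to 26.7 CPM, with 17 of 20 at 3 counts or fewer in every library and C1qa, C1qb, C1qc and Lyz1 at 0. Endothelial markers summed to 84.5 to 111 and 102 to 106 CPM, and myogenic markers to 18.7 to 43.6 and 31.4 to 48.6 CPM, with Myod1 and Myog at 0. The adipocyte sum was higher with SR-3420, and several of its genes (Fabp4, Plin1, Cidec, Cfd) are themselves genes that responded. In bulk libraries, more cells of a type and more RNA per cell cannot be told apart, and the part of the marker levels in the results was not tested. The first principal component of the 6 libraries (30.2% of the variance) set DMSO replicate 2 apart, and the second (24.8%) separated the treatments. Without DMSO replicate 2, 31 genes were called and 52 passed the adjusted p.

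Abhd5 itself, on chromosome 9 (122260734 to 122290641, mm9), was read at 47.2, 55.8 and 54.8 CPM in the DMSO libraries and at 77.8, 70.9 and 78.5 CPM in the SR-3420 libraries. The groups did not overlap, but the log2 fold change of 0.53 (SE 0.19) did not pass the test (adjusted p = 0.296). With Dox the DMSO libraries held 574 ± 86.1 CPM (SD, n = 3), against 52.6 ± 4.71 without, in the direction of the labels. How deep the knockdown is cannot be read from these values, because none of these 18 libraries is from cells without the shRNA and because it is not settled which bases of a gene were counted: the counted lengths mostly match intron lengths, gene-level counting is described, and the rescue construct is a coding sequence.

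SR-3420 changed few genes in the knockdown cells, and most of them rose. With the adjusted p at 0.05 or below and a log2 change of 1 or more in either direction, 24 genes were higher (0.236% of genes tested) and 3 were lower (0.0295%). Without the limit on fold change, 71 genes rose (0.698%) and 7 fell (0.0688%). In the libraries with Dox the same contrast raised 214 genes (2.1%) and lowered 102 (1%) past both limits, and 665 (6.53%) rose and 343 (3.37%) fell by the adjusted p alone. The median log2 fold change over all genes was -0.00343 without Dox, and the median 95% interval reached 0.449 log2 units to either side. These intervals are not adjusted for the number of genes, so a typical gene needed a larger change than that to pass the adjusted p. Over all tested genes, 7.79% had SR-3420 libraries wholly above DMSO and 6.29% wholly below. The 78 genes past the adjusted p were chosen from these same libraries, which largely fixes that their groups did not overlap, so nothing is read from it. Replicate numbers pair the samples, and with the replicate as a block 35 genes were called higher (0.344%) and 6 lower (0.059%), while 197 (1.94%) and 41 (0.403%) passed the adjusted p. All 78 genes past the adjusted p were also past it with the block. The number depended on single libraries: without DMSO replicate 1, 28 genes passed, without DMSO replicate 3 35, without SR-3420 replicate 1 36 and without SR-3420 replicate 3 51. After thinning, 47 passed.

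**Figure D1:**
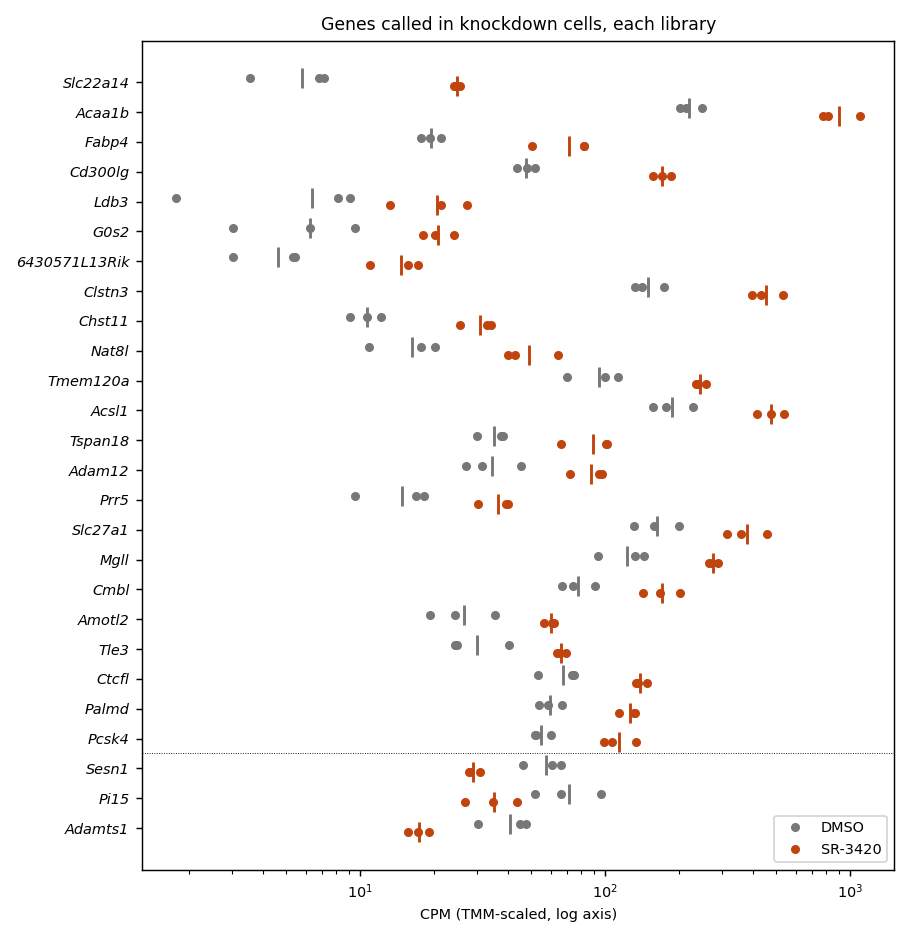
Expression of genes called in SR-3420 against DMSO without Dox, as CPM per library on a log axis, where each point is a library and each vertical bar a group mean of 3 libraries. For every gene drawn, the SR-3420 libraries do not overlap the DMSO libraries, which the choice of the genes from these same libraries largely fixes.

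The smallest p-value belonged to Cd300lg, which encodes a membrane protein of the CD300 family. It was read at 48.0, 51.7 and 43.6 CPM in DMSO and at 157, 171 and 185 CPM in SR-3420. The log2 fold change was 1.84 (SE 0.17, adjusted p = 1.75e-07). Tmem120a, a membrane protein of fat cells, was at 99.7, 113 and 70.0 CPM in DMSO and 239, 258 and 236 CPM in SR-3420. The treated libraries lay close together, and the log2 fold change was 1.39 (SE 0.14, adjusted p = 7.49e-07). Clstn3, which encodes calsyntenin-3, was at 142, 174 and 133 CPM in DMSO and 435, 530 and 399 CPM in SR-3420. Its log2 fold change was 1.61 (SE 0.17, adjusted p = 1.06e-06).

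Some genes of fatty acid uptake, activation and oxidation also rose. Acaa1b, a peroxisomal thiolase of β-oxidation, was at 203, 214 and 248 CPM in DMSO and 1100, 773 and 816 CPM in SR-3420. The treated libraries were all high, replicate 1 most of all, with a log2 fold change of 2.02 (SE 0.23, adjusted p = 3.64e-06). Its value is uncertain in that the near-identical copy Acaa1a, which did not pass (log2 fold change 0.38, adjusted p = 0.312), can share reads with it. Acsl1, which activates long-chain fatty acids to acyl-CoA, was at 157, 229 and 177 CPM in DMSO and 477, 537 and 417 CPM in SR-3420. The log2 fold change of Acsl1 was 1.36 (SE 0.17, adjusted p = 2.06e-05). Slc27a1, a fatty acid transport protein, was at 158, 131 and 201 CPM in DMSO and 359, 315 and 458 CPM in SR-3420, which gave a log2 fold change of 1.20 (SE 0.19, adjusted p = 0.000706).

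Some genes of lipolysis and fatty acid binding rose as well. Mgll, the monoglyceride lipase that completes triglyceride breakdown, was at 93.4, 144 and 132 CPM in DMSO and 273, 265 and 288 CPM in SR-3420. Its log2 fold change was 1.17 (SE 0.17, adjusted p = 0.000254). Fabp4, the fatty acid carrier of fat cells, was at 21.4, 17.7 and 19.3 CPM in DMSO and 81.9, 81.9 and 50.2 CPM in SR-3420. SR-3420 replicate 3 was the lowest treated library (log2 fold change 1.87, SE 0.31, adjusted p = 0.00075). G0s2, an inhibitor of ATGL, was at 6.23, 9.52 and 3.04 CPM in DMSO and 18, 20.3 and 24.3 CPM in SR-3420, a log2 fold change of 1.77 (SE 0.39, adjusted p = 0.0249). G0s2 missed the adjusted p in 6 alternative settings, among them thinning and leaving out DMSO replicate 1 or 3 or SR-3420 replicate 2 or 3. The counted length was only 73 bases for Fabp4 and 186 for G0s2, so their CPM values rest on few bases and few counts.

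The largest fold change of the called genes was that of Slc22a14, a member of the organic ion transporter family, at 3.56, 6.8 and 7.1 CPM in DMSO and 25.5, 24.4 and 24.3 CPM in SR-3420. The treated libraries were nearly equal, and the log2 fold change was 2.11 (SE 0.42, adjusted p = 0.00843). It missed the adjusted p after thinning and without DMSO replicate 1. Other called genes were Nat8l, which makes N-acetylaspartate (1.53 log2), Tle3, a transcriptional co-regulator of fat cell genes (1.13), the angiomotin family member Amotl2 (1.15), the metalloprotease Adam12 (1.31), the proprotein convertase Pcsk4 (1.05), Prr5, a subunit of the mTORC2 kinase complex (1.24), the sulfotransferase Chst11 (1.54), Tspan18 (1.32), Palmd (1.07), Cmbl (1.17), Ctcfl (1.07), Ldb3 (1.79) and 6430571L13Rik (1.64). The log2 fold changes of all 24 genes had a median of 1.34. Among these genes, Cd300lg, Tmem120a, Clstn3, Acaa1b, Acsl1, Ctcfl, Pcsk4, Mgll, Palmd, Cmbl, Adam12, Slc27a1, Fabp4 and Nat8l passed the adjusted p in every alternative setting in which they were tested. Chst11 and Tspan18 each missed it in 6 settings, Ldb3 in 8 and 6430571L13Rik in 9, among them the settings without DMSO replicate 1, 2 or 3. Tle3 missed it without DMSO replicate 1, Amotl2 without DMSO replicate 3 and after thinning, and Prr5 without DMSO replicate 1 or 2 or SR-3420 replicate 2.

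The 47 genes that rose past the adjusted p but under the fold limit had log2 fold changes of 0.528 to 0.962. Plin1, the coat protein that holds ABHD5 at the droplet, was at 491, 607 and 456 CPM in DMSO and 972, 984 and 975 CPM in SR-3420. The treated libraries lie close together, and the log2 fold change was 0.92 (SE 0.16, adjusted p = 0.00135). Gpd1, which makes glycerol-3-phosphate for triglyceride synthesis, was at 268, 393 and 317 CPM in DMSO and 619, 572 and 654 CPM in SR-3420, a log2 fold change of 0.92 (SE 0.15, adjusted p = 0.000759). Adipor2, an adiponectin receptor (0.93), the mechanically gated channel Piezo1 (0.94), the carnitine acetyltransferase Crat (0.78), the carnitine transporter Slc22a5 (0.85), the lipid droplet protein Cidec (0.71), the glycerol channel Aqp7 (0.80), the peroxisome division factor Pex11a (0.74) and the acyltransferase Agpat3 (0.60) also rose. Agpat3 missed the adjusted p in 7 of 15 alternative settings, with each of the 6 libraries left out in turn among them, Cidec and Aqp7 in 5, Pex11a in 4, Crat in 2 and Slc22a5 in 1. Plin1, Gpd1, Adipor2 and Piezo1 passed in all 15.

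The genes that fell were few and their calls less stable. Adamts1, a secreted metalloprotease, was at 30.3, 44.9 and 47.7 CPM in DMSO and 19.2, 15.7 and 17.3 CPM in SR-3420. Its log2 fold change was -1.21 (SE 0.27, adjusted p = 0.0206). Pi15, a secreted peptidase inhibitor, was at 51.6, 96.6 and 65.9 CPM in DMSO and 26.7, 34.8 and 43.9 CPM in SR-3420, which is 0.499 of the DMSO level (adjusted p = 0.0297). Sesn1, a sestrin under p53 and FOXO control, was at 60.5, 46.2 and 65.9 CPM in DMSO and 27.9, 30.8 and 28.2 CPM in SR-3420. This is 0.499 of the DMSO level (adjusted p = 0.0332). Trp53inp1, a p53 target (-0.77), Heca (-0.61) and B3galnt1 (-0.69) fell under the fold limit. Adamts1 missed the adjusted p in 5 alternative settings, Pi15 in 4, Sesn1 in 6, B3galnt1 in 7, Trp53inp1 in 8 and Heca in 9. Without DMSO replicate 3, or without SR-3420 replicate 1, 100% of the genes past the adjusted p were higher, so that none of these was called.

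PPAR targets were among the gene lists with the largest shares of members that rose, beside adipocyte markers and genes of lipolysis, with which they share members. Of 66 genes listed, 53 were tested, 51 of these had a log2 fold change above 0 (96.2%, against 49.5% of all tested genes), and 12 rose (22.6%, against 0.698%) while 0 fell. Their median log2 fold change was 0.554. They include Acaa1b, Acsl1, Aqp7, Cidec, Fabp4, Gpd1, Mgll, Pex11a, Plin1 and Slc27a1, and with the replicate block 23 members rose, where 1.94% of all tested genes did. Within the replicate pairs the list's median was 0.578, 0.594 and 0.526, and 41 members (77.4%) were higher in all 3 pairs, against 17.9% of all tested genes. The list was made with results of these libraries known, so its counts are a description. After thinning the count was again 12. With Dox the list's median was 0.766 and 32 members rose, where 6.53% of all tested genes did.

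Lists of lipid metabolism share members with the PPAR list. Of 24 tested genes of lipolysis and the lipid droplet, 5 rose (Mgll, Plin1, G0s2, Cidec, Aqp7; 20.8%, against 0.698% of all tested genes) with a list median of 0.36 log2. With Dox the median was 0.478 and 10 rose, against 6.53% of all tested genes. Without Dox, 8 passed with the replicate block, 3 with library totals only, 2 without DMSO replicate 1 (Plin1 and Mgll), and 3 without DMSO replicate 3 or any 1 of the SR-3420 replicates. Of 51 tested genes of fatty acid oxidation, 4 rose (among them Acaa1b, Crat and Pex11a; list median 0.318), of 22 of fatty acid uptake and activation 3 rose (Slc27a1, Acsl1, Fabp4; 0.212), and of 25 of triglyceride synthesis 2 rose (Gpd1, Agpat3; 0.242). With the block these counts were 7, 4 and 8, where 1.94% of all tested genes rose, and with library totals only 2, 3 and 1. Without any 1 of the 6 libraries, 1 gene of triglyceride synthesis passed. The 5 lists hold 135 different tested genes, of which 15 rose (11.1%), 0 fell and 107 had a log2 fold change above 0. The other 56 of the 71 genes that rose are in none of these lists.

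**Figure D2:**
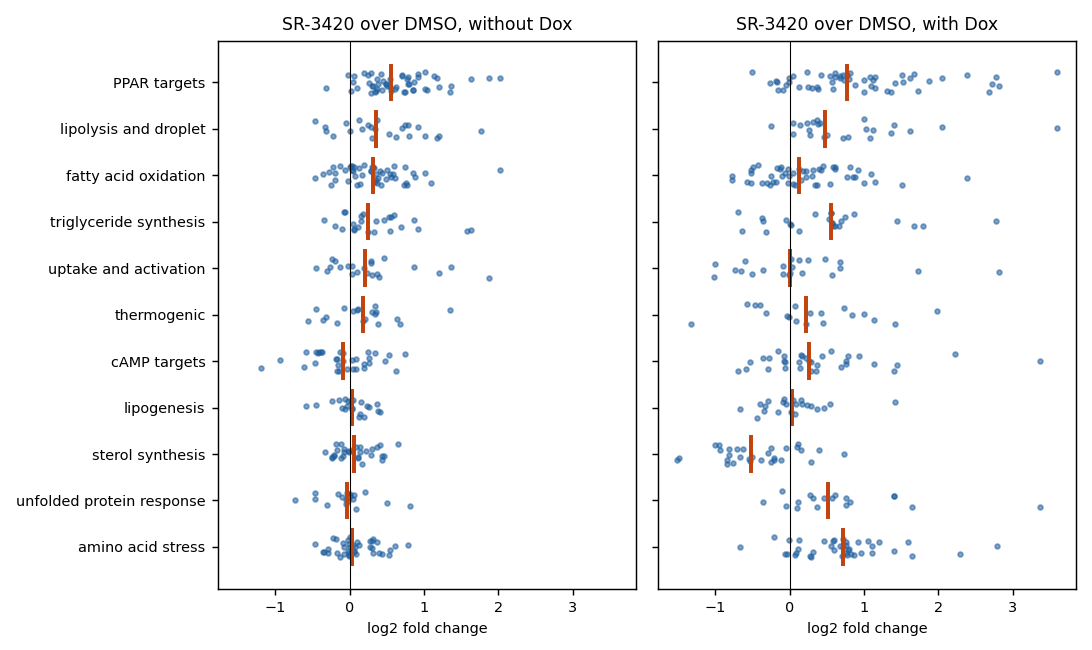
Log2 fold changes of SR-3420 against DMSO for the tested members of 11 gene lists, without Dox (left) and with Dox (right), where each point is a gene and each bar the list's median. PPAR targets have medians of 0.554 and 0.766, and amino acid stress genes 0.0318 and 0.719.

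Several other programs had no member past the adjusted p. Of 18 tested markers of the unfolded protein response (UPR), chosen by the study, 0 passed without Dox (median -0.0292) and 8 rose with Dox (median 0.51), where 6.53% of all tested genes rose. Of 40 tested genes of amino acid stress, 0 passed without Dox (median 0.0318) and 20 rose with Dox (median 0.719). At the 0.698% of all tested genes that rose without Dox, lists of these sizes would hold fewer than 1 such gene, so a count of 0 says little about them. Slc3a2, a subunit of amino acid transporters, was at 102, 113 and 120 CPM in DMSO and 106, 110 and 122 CPM in SR-3420. The ranges of its groups overlap. Nor did any of 33 tested cAMP targets, 22 clock genes, 19 thermogenic genes, 22 lipogenesis genes or 30 sterol synthesis genes pass, with medians from -0.0945 (cAMP targets) to 0.178 (thermogenic genes). In the lists of nuclear receptors (29 tested, median 0.00232), xenobiotic and NRF2 genes (38, 0.0738), glucose and pyruvate metabolism (43, 0.0778), interferon-stimulated genes (35, 0.144), and preadipocyte (11, -0.0257), endothelial (5, 0.144), macrophage (1, 0.331) and myogenic markers (1, 0.333), 0 passed too. Against 0.0688% of all tested genes that fell and 0.698% that rose, of 39 tested p53 and FOXO targets 2 fell (Sesn1 and Trp53inp1, median -0.00178; none fell in 6 of 15 alternative settings, thinning among them), of 41 matrix genes 1 fell (Adamts1, median 0.00237), and of 19 adipocyte markers 4 rose (Fabp4, Plin1, Cidec, Cfd, median 0.374). With the block 1.94% of all tested genes rose and 0.403% fell. Beside these shares, 3 of the p53 and FOXO targets rose and 2 fell, and 1 matrix gene rose and 1 fell. Of the adipocyte markers 8 rose with the block and 1 fell, Pparg, which encodes PPARγ (log2 fold change -0.47, adjusted p = 0.254, with block 0.0141) and was named after its value was seen. Without DMSO replicate 3, or SR-3420 replicate 1 or 2, 2 adipocyte markers rose. The study sorted genes of its lipase inhibitor experiment, in other libraries, into 4 clusters. Here 7 of 87 tested genes of the first rose (8.05%, median 0.268), 1 of 72 of the second (1.39%, 0.0431), 3 of 140 of the third with 1 fallen (2.14%, 0.119) and 4 of 143 of the fourth with 1 fallen (2.8%, 0.0655), against 0.698% of all tested genes that rose. With the block these counts were 16, 4, 8 with 1 fallen, and 9 with 3 fallen, against 1.94% of all tested genes that rose with it and 0.403% that fell. With 1 of the 6 libraries left out in turn, 4 to 6, 1 to 2, 1 to 2 and 1 to 4 rose, the lowest count of the fourth being without DMSO replicate 1. At an unadjusted p under 0.05 in edgeR, the 15 lists with no member past the adjusted p held 32 higher and 10 lower among 347 tested entries (a gene in more lists is counted in each), DESeq2 called 3 of them, limma-voom 1 and the replicate block 15. For the UPR markers these counts were 2 higher and 0 lower unadjusted, with 0 by DESeq2, limma-voom or the block, and for amino acid stress 2 and 0 unadjusted, with 1 by DESeq2 (Slc1a5), 0 by limma-voom and 1 by the block. By the block 4 genes of glucose and pyruvate metabolism passed. So did 2 each of the cAMP targets, the thermogenic and sterol synthesis genes, the nuclear receptors, and the xenobiotic and NRF2 genes. Over all genes, 565 were higher (5.55%) and 328 lower (3.22%) at an unadjusted p under 0.05.

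Several PPAR-linked genes of interest were judged by fixed rule whether or not they passed. Plin2, a droplet coat protein, was at 72.1, 133 and 54.8 CPM in DMSO and 151, 218 and 140 CPM in SR-3420. The groups do not overlap, but the log2 fold change of 1.01 (SE 0.26) missed the threshold (adjusted p = 0.0554). It passed with the replicate block (5.49e-06) and in 5 other settings, among them limma-voom, no filter on low counts and leaving out DMSO replicate 2. Pdk4, a kinase that shuts down pyruvate dehydrogenase, was at 104, 51.7 and 94.4 CPM in DMSO and 164, 101 and 153 CPM in SR-3420. Its groups overlap narrowly, its log2 fold change was 0.71 (SE 0.26, adjusted p = 0.345), and it passed with the replicate block (0.00826). Angptl4, an inhibitor of lipoprotein lipase (0.86, adjusted p = 0.166, with block 5.73e-05), and Ppara, which encodes PPARα (1.14, adjusted p = 0.56, with block 0.0056), also missed the adjusted p without the block; Angptl4 passed with no filter on low counts and with only the 6 libraries of the contrast as well, and Ppara and Pdk4 with no filter. The coactivator Ppargc1a was at 32.5 ± 12 CPM in DMSO and 34.8 ± 14.4 in SR-3420 (SD, n = 3). Its log2 fold change of 0.04 did not pass (adjusted p = 0.99). Ucp1 was read at 1, 0 and 0 counts in DMSO and 3, 0 and 2 in SR-3420, too few to compare.

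The response with Dox comes from other libraries, with other controls, and was compared with the response without it. Of the 24 genes called higher without Dox, 19 were also called higher with Dox (79.2% of the 24, and 8.88% of the 214), against 2.1% of all tested genes, and 21 rose by the adjusted p alone, against 6.53%. All 71 genes that rose without Dox had a log2 fold change above 0 with Dox, as 48.6% of all tested genes did, and 60 rose there. Their median log2 fold change was 0.905 without Dox, the contrast in which they were chosen, and 1.08 with Dox. Of the 7 genes that fell, 6 were below 0 with Dox, against 51.4% of all tested genes, and 3 fell there (Pi15, Sesn1, Trp53inp1), against 3.37%. Ldb3, Adam12, Pcsk4, Slc27a1 and Cmbl were the 5 genes called higher without Dox but not called with it. For Slc27a1, the libraries with Dox were at 243, 207 and 312 CPM in DMSO and 281, 252 and 370 CPM in SR-3420. These groups overlap, and the difference between the responses, 0.95 log2 lower with Dox, missed the threshold (adjusted p = 0.0917) but passed with the replicate block (9.77e-05).

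**Figure D3:**
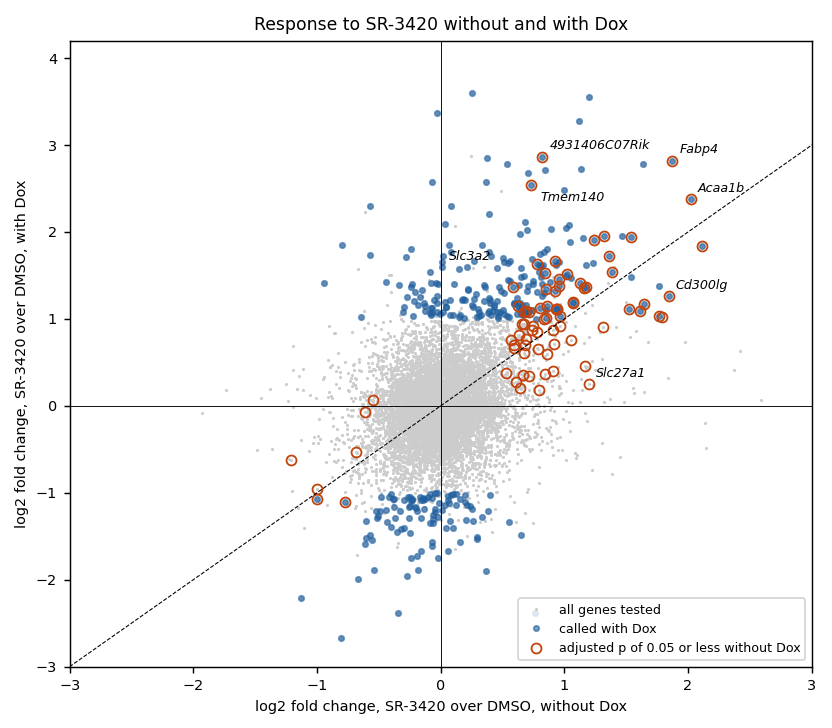
Log2 fold change of SR-3420 against DMSO without Dox (horizontal axis) and with Dox (vertical axis), where each point is a tested gene, filled blue if called with Dox and ringed if past the adjusted p without Dox, and the dashed line marks equal responses. All 71 genes that rose without Dox lie above 0 on the vertical axis.

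Read the other way, the 214 genes raised with Dox had a median log2 fold change of 1.35 with Dox and 0.538 without. Their values without Dox were not used to choose them: 175 (81.8%) were above 0 there, against 49.5% of all genes, 40 (18.7%) rose, against 0.698%, and 98 (45.8%) had replicates wholly above DMSO, against 7.79% of all tested genes. With the replicate block 70 of the 214 rose without Dox, where 1.94% of all tested genes did. The response was smaller without Dox for 206 of them, but they were chosen for a large response with Dox, which inflates that number. Of the 102 genes lowered with Dox (median -1.21), 71 (69.6%) were below 0 without Dox, against 50.5% of all tested genes, 2 fell (1.96%, against 0.0688%), and the median was -0.15. The difference between lists was not tested: the 20 PPAR targets among the 214 had medians of 1.64 with Dox and 0.891 without, and 9 rose without Dox, whereas the 7 genes of amino acid stress had medians of 1.59 and 0.0108 and 0 rose. The 4 UPR markers had medians of 1.53 and -0.0128.

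The difference between the responses passed the test for 55 genes with a larger response with Dox (0.54%) and for 22 with a lower one (0.216%). Of the 78 genes past the adjusted p without Dox, 4 had a larger response with Dox: 4931406C07Rik, Tmem140, Aifm2 and Ephx2. Tmem140 was at 52.5, 55.8 and 45.7 CPM in DMSO and 94.6, 77.2 and 82.4 CPM in SR-3420 without Dox, and at 71.3, 73.9 and 101 against 497, 458 and 454 CPM with Dox. Its log2 fold change was 0.73 without Dox (adjusted p = 0.0405) and 2.54 with Dox, a difference of 1.81 (SE 0.23, adjusted p = 9.98e-05). Without Dox, Tmem140 and 4931406C07Rik each missed the adjusted p in 9 of 15 alternative settings, among them limma-voom, thinning and each of the 6 libraries left out in turn. Slc3a2 and Sash1, which did not pass without Dox, at 0.01 and 0.02 log2, rose with Dox by 1.59 and 1.72. Idh1, the cytosolic isocitrate dehydrogenase that makes NADPH, was at 291, 263 and 270 CPM in DMSO and 289, 276 and 278 CPM in SR-3420 without Dox. With Dox it fell by 1.14 on the log2 scale. With the replicate block the difference also passed for Plin2 (1.02, adjusted p = 0.0011), Ppara (1.56, 0.0167), Ppargc1a (1.12, 0.0297), Gpd1 (0.745, 0.0105) and Cmbl (-0.721, 0.0479).

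**Figure D4:**
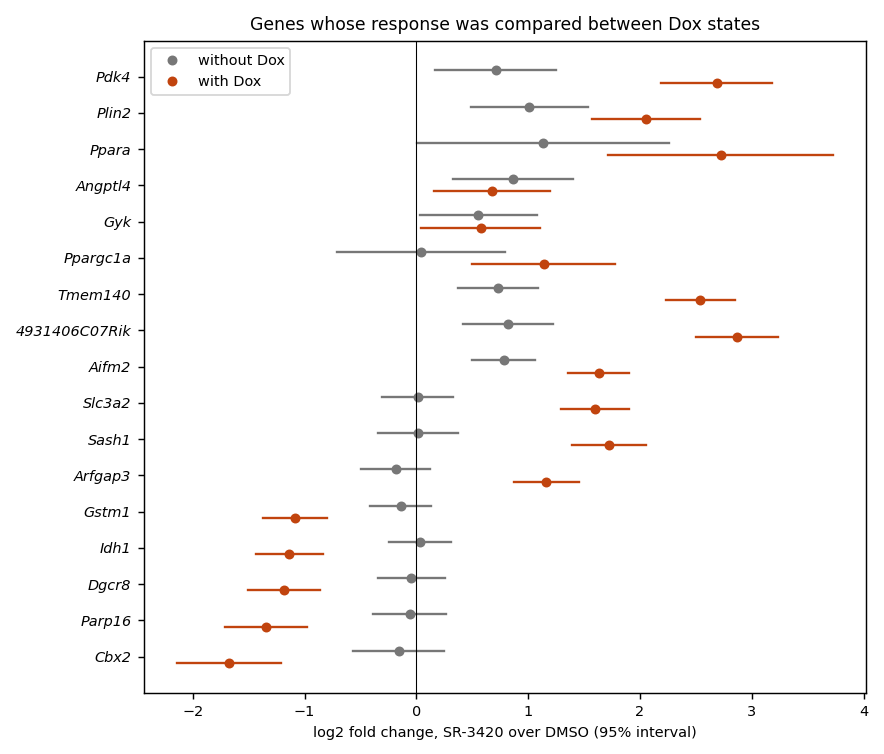
Log2 fold change of SR-3420 against DMSO without Dox (grey) and with Dox (orange) for 17 genes, where points are estimates and lines their 95% intervals. Tmem140 is at 0.73 without and 2.54 with Dox, while Idh1 is at 0.03 without and -1.14 with Dox.

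The response to ISO without Dox was read from the same DMSO libraries, so that shared controls can move both contrasts, and the values are only set side by side. ISO raised 14.5% of tested genes and lowered 13.5%. Of the 24 genes called higher with SR-3420, 10 rose with ISO, 4 fell and 10 did not pass. Clstn3 had a log2 fold change of 3.23 with ISO and 1.61 with SR-3420, while Cd300lg had -0.61 with ISO and 1.84 with SR-3420. Slc27a1 had -1.17 and 1.20, and Cmbl -1.14 and 1.17. Gyk, glycerol kinase, had 3.08 with ISO and 0.55 with SR-3420 (adjusted p = 0.518, with block 0.0273).

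The genes that rose were also compared by position and promoter sequence. Of the 71, 8 (11.3%) lie within 50000 bases of another gene that rose, against 1.39% of tested genes: Acaa1b and Slc22a14 are 12362 bases apart on chromosome 9, Pex11a and Plin1 4487 bases on chromosome 7, Cant1 and Lgals3bp 4357 bases on chromosome 11, and Crat and Fam73b 14956 bases on chromosome 2 (mm9). RefSeq promoter windows (GRCm38.p6, 300 bases) were matched for 53 of the 71. The letters AGGTCA, searched on both strands, occur in 8 of these (15.1%) and in 1195 of 8217 windows of tested genes (14.5%), TGACG in 17 (32.1%, against 36.7%), and DR1, the direct repeat of AGGNCA with 1 base between, which can itself hold AGGTCA, in 0 of 53 and 25 of 8217 (0.304%). DR1 is so rare in such windows that 0 of 53 says little, and it was also in 0 of 42 PPAR targets with a window. In these windows the genes that rose carry AGGTCA at about the share of all tested genes. Windows of 3 genes that hold the letters are shown so that the element can be seen in place, with AGGTCA, or TGACCT where it lies on the opposite strand, in capitals. Aqp7, of which the first of 2 windows is given, is on the minus strand at chr4:41048087-41048386, Slc22a14 on the minus strand at chr9:119190346-119190645 and Adig, a small fat cell membrane protein, on the plus strand at chr2:158502362-158502661.
Aqp7: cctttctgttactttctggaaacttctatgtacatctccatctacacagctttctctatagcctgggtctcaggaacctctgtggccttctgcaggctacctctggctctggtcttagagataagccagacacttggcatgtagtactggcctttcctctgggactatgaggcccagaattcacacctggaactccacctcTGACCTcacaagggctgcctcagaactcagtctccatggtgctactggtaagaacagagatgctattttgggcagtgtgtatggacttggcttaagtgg
Slc22a14: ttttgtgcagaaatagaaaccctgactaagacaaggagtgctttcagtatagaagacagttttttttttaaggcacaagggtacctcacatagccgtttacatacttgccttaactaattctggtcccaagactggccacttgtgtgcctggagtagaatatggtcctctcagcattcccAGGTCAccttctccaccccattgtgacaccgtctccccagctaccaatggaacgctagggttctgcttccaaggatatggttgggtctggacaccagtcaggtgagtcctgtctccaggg
Adig: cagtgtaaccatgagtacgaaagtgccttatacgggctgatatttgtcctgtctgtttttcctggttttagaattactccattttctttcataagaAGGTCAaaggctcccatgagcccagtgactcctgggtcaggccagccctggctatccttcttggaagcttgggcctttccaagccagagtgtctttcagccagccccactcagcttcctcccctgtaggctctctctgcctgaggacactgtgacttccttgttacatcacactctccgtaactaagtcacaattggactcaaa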

How the data were processed

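Brown adipocyte RNA-seq counts were taken as deposited: whole-number counts per gene that the authors made with STAR (2.4.2a), HOMER and iRNA-seq on mm9, keeping 1 read per position and length, with 1 table for all 18 libraries. For 72.5% of 16565 genes matched to an annotation the counted length was within 10% of the intron length, and for 2.27% within 10% of the exon length, although gene-level counting is described, so which bases were counted is not settled. Totals were 689910 to 1956565 counts per library; intervals cover the spread between these samples.

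The counts were fitted in R (4.3.3) with edgeR (4.0.16), TMM factors, filterByExpr and the quasi-likelihood test over the 6 groups, with Benjamini-Hochberg adjustment over 10178 genes. The limits for a call were 0.05 on the adjusted p and 1 on the size of the log2 change. The response with Dox minus that without was tested as an interaction. Alternatives were DESeq2 (1.42.0), limma-voom (limma 3.58.1), other scaling and filters, each replicate left out, the replicate block, and, chosen after seeing the data, thinning. Same-numbered samples, which the study describes as independent experiments, deviated together (r = 0.138, 0.263 and 0.137), so the block is given beside named genes and lists where it changes a call or moves a count by over 1.5 times. Genes were named by rule: Abhd5, all called genes, up to 10 under the fold limit in each direction, a fixed set, list members past the threshold, genes gained with the block and those of the interaction. The 27 gene lists and the genes named were chosen with earlier results of these data known. The fits were tested on simulated data. Some genes are not reported here.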

Additional observations from a re-analysis of the deposited data

Results flagged for a closer look

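The response to SR-3420 differed with and without Dox, by the interaction test of edgeR, for 12 of the named genes. Most of these were named by rule for the smallest p of this same test, which largely fixes the count of 12. Over all tested genes, 55 (0.54%) had a larger response with Dox and 22 (0.216%) a lower one by this test. The values are the log2 response with Dox minus that without. The response was larger with Dox for 4931406C07Rik (2.05, adjusted p = 9.98e-05), Pdk4 (1.98, 0.00639), Tmem140 (1.81, 9.98e-05), Sash1 (1.71, 0.000183), Slc3a2 (1.58, 0.000155), Arfgap3, a regulator of Golgi transport (1.35, 0.00095), and Aifm2, a suppressor of lipid peroxidation (0.848, 0.0259). It was lower with Dox for Cbx2, a Polycomb protein (-1.52, 0.0161), Parp16 (-1.29, 0.0101), Idh1 (-1.17, 0.00276), Dgcr8, a microRNA processing factor (-1.14, 0.0105), and the glutathione transferase Gstm1 (-0.945, 0.0169). Aifm2 lost its call in 10 of 20 settings. SR-3420 replicate 1 with Dox held 35.6% of its counts in 10 genes, and without it 10 of the 12 differences still passed, with Aifm2 (0.829, adjusted p = 0.0673) and Gstm1 (-0.883, 0.057) the exceptions. Genes overlapping on the other strand are 3110062M04Rik for Tmem140, Taf1d for 4931406C07Rik, H2afy2 for Aifm2 and Trmt2a for Dgcr8.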

How the results depend on the processing

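No named gene's fold change or difference between responses that passed the adjusted p in any setting took the opposite sign in another. Fold changes of 7 named genes near 0 took both signs (Hilpda, Ppargc1a, Slc3a2, Sash1, Idh1, Parp16, Dgcr8), as did 15 of the differences, and medians of lists near 0 changed sign too. The 27 genes called became 41 with no filter on low counts, 41 with the replicate block, and 16 to 31 with a replicate left out. The 78 genes past the adjusted p became 36 with library totals only, 157 with no filter, 238 with the replicate block, 47 after thinning, and 28 to 53 with a replicate left out. Of the PPAR targets, 12 passed, 19 with no filter, 23 with the replicate block, and 9 to 12 with a replicate left out. Of the 27 calls, 25 were also made with the block. Sesn1 and Pi15 were not, as their fold changes fell under the limit, and both stayed past the adjusted p. The block made 41 calls in all and ended no adjusted p call. The depth of 689910 counts in the smallest library limits small changes and genes of few counts, such as Ucp1 and Hilpda.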

Other observations

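Of 16 genes whose call was gained with the replicate block, the 5 with the smallest p were Plin2 and Ppara, given with the other results, and Abca8a, a transporter of the ABC family, at 53.8 ± 9.03 CPM in DMSO and 22.7 ± 7.73 in SR-3420 (SD, n = 3; log2 fold change -1.20, adjusted p with the block 0.000351), Adrb3, the β3-adrenergic receptor (1.20, 0.00216) and Galnt15 (1.76, 0.0125).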
